A study of Mus musculus with 15 samples.

Results

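The C/EBP family genes Cebpa, Cebpb, Cebpd, Cebpe and Cebpg were chosen by gene name, as the family of the induced factor, and were followed through 3 histone marks at 5 times during the conversion of pre-B cells into macrophage-like cells. For each of the 5 genes, ChIP-seq tags were counted in the 3 kb centred on its start and in 66 further windows of 3 kb that tile 100 kb to each side, and the same counts at 22350 protein-coding gene starts served as the background. C/EBP proteins are basic leucine zipper factors that bind DNA as dimers with themselves or with each other, so the genes that are active in a cell set which dimers can form. C/EBPα commits progenitors to the granulocyte and monocyte lineages, C/EBPβ and C/EBPδ act in macrophages and in inflammation, C/EBPε drives the late steps of granulocyte maturation, and C/EBPγ lacks an activation domain of its own and serves as a dimer partner. H3K4Me1 marks enhancers, H3K27Ac marks active enhancers and promoters, and H3K27Me3 is the mark of Polycomb-silenced chromatin.

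The cells were C10 cells, a line derived from HAFTL pre-B cells that carries a retroviral C/EBPα-estrogen receptor fusion with GFP. The labels give induction with 100 nM β-estradiol in medium with 10 nM IL-3 and CSF-1, and treatment of control cells with 0.1% ethanol. Chromatin was taken at 0, 3, 12, 24 and 48 h post-induction (hpi). By this description every library comes from a single line that holds the C/EBPα transgene, the cells at 0 hpi included. A larger share of cells with a mark cannot be told apart from more of the mark per cell.

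Each of the 15 combinations of mark and time has 1 library, so no difference between times has a replicate check and no p-value is given. Intervals are exact 95% intervals that cover counting error only. The deposited libraries held between 11041458 and 31557475 tags, and the counts given are from a random draw of each library down to the smallest of its mark, which left a mean of 13.13 H3K4Me1, 18.30 H3K27Ac and 18.45 H3K27Me3 tags per 3 kb of mappable genome. A window is called enriched from 27, 34 and 34 tags respectively, and higher or lower where it changed at least 2-fold after 5 tags were added to each count. The H3K27Ac libraries at 0 and 3 hpi stand apart: they held 523 and 438 tags in a 90-kb segment of the heavy chain locus where the other 13 libraries held 23 together. Given a mean of 18.30 H3K27Ac tags per 3 kb, these 2 counts are near ordinary coverage and do not mark the segment as acetylated. It is the other 13 libraries that were almost empty there. The H3K4Me1 and H3K27Me3 libraries at 0 hpi held 0 and 4 tags there. Whether all libraries come from the same population of cells was not tested. The change from 12 to 48 hpi, which uses neither the 0 hpi nor the 3 hpi H3K27Ac library, is therefore given beside the main H3K27Ac results. The identity of the cells was checked on marker genes: the H3K27Ac tags at the starts of 8 B cell genes summed to 9902 at 0 hpi and 3451 at 48 hpi, and those at 8 macrophage genes to 449 and 3077. The 4 T cell genes summed to 28 and 28 tags and the 4 erythroid genes to 119 and 114, of which Klf1, enriched at every time, held 103 and 93.

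The promoters of the family members differ in their base composition and core elements, and the bases before the start are shown for the members that RefSeq promoter entries matched (build GRCm38.p6, -250 to -1, 5′ to 3′ along the gene). Capitals mark matches on either strand to the TATA element (TATAAA), the CCAAT box and the GC box, which reads GGGCGG. The Cebpa promoter (chr7:35119043-35119292, plus strand) has 66.4% G and C, 22 CpG dinucleotides and a TATA match at -30. The Cebpb promoter (chr2:167688665-167688914, plus strand) is the richest in G and C of the 3, at 81.6%, with 41 CpG and 5 GC boxes, of which those at -238 and -234 overlap, and has no TATA match. The Cebpg promoter (chr7:35056567-35056816, minus strand) has 70.8% G and C, 29 CpG and 2 CCAAT matches.
Cebpa promoter: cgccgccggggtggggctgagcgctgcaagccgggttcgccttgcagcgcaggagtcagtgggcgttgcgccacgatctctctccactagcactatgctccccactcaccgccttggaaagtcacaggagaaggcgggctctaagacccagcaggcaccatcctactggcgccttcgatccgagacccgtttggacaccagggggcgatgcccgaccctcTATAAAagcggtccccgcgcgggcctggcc
Cebpb promoter: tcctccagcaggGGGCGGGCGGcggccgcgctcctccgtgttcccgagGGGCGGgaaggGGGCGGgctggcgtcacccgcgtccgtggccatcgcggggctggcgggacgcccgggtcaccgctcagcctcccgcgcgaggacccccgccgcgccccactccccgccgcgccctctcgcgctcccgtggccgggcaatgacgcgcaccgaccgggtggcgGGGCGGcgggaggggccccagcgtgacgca
Cebpg promoter: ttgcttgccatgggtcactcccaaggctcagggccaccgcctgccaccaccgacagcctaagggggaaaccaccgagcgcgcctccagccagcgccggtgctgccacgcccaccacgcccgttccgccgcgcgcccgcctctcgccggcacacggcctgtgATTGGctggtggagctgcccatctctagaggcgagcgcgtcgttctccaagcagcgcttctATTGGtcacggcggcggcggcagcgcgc

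None of these 3 promoters holds a match on either strand to the C/EBP motif (TTGCNNAA), the PU.1 motif (GAGGAAGT), the AP-1 motif (TGANTCA) or the cAMP response element (TGACGTCA). Of 32841 promoters of the same length, 9.57%, 2.44%, 6.75% and 1.55% hold these motifs, while 12.4% hold a TATA match, 33.9% a CCAAT box and 32.7% a GC box. A match describes the letters in the window and is not evidence of binding.

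Away from the promoters, 3 stretches of 300 bases (mm9, plus strand) are shown as examples of sequence in windows of Cebpb and Cebpd whose H3K27Ac rose. These windows are among those with most H3K27Ac at 48 hpi, so their choice favoured a rise towards 48 hpi, and their changes are descriptions. Each is the stretch without exon bases that holds the most motif matches in its 3-kb window, so that it holds a match was set by the choice. Capitals mark matches to the C/EBP and AP-1 motifs. The stretch at -39 kb from Cebpb (chr2:167474295-167474594, an intron of Tmem189) holds 1 C/EBP match, and its H3K27Ac tags went from 15 at 0 hpi to 192 at 48 hpi. The stretch at +66 kb from Cebpb (chr2:167579595-167579894, intergenic) holds 3 C/EBP matches, which start at bases 2, 133 and 229, and went from 29 to 97 tags. The stretch at -9 kb from Cebpd (chr16:15878369-15878668, intergenic) holds 1 C/EBP match at base 3 and 2 AP-1 matches at bases 200 and 219, and went from 1 to 23 tags.
Cebpb -39 kb: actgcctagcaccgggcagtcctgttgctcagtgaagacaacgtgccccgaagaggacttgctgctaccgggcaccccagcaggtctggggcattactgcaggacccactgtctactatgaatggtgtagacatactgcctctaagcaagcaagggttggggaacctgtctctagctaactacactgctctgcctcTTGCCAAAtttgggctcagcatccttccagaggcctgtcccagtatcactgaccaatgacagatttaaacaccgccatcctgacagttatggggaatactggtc
Cebpb +66 kb: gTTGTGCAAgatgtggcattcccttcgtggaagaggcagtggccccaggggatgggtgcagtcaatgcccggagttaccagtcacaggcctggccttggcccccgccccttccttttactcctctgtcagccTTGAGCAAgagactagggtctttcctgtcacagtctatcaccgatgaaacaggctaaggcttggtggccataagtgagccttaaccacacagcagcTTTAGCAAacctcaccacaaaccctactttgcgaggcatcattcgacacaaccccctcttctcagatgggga
Cebpd -9 kb: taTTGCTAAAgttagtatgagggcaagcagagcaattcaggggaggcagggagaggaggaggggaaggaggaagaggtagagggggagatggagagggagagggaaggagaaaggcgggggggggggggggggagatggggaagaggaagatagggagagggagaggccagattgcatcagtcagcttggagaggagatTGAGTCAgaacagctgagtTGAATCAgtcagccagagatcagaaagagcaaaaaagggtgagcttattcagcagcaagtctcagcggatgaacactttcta

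Of 8226800 stretches of 300 bases across 19 chromosomes, 13.8% hold a C/EBP match and 8.83% an AP-1 match, shares that describe how common a match is and are no comparison with stretches chosen for matches. The whole 3-kb window at +66 kb from Cebpb holds 4 C/EBP matches, where the mean over 3-kb regions was 1.53 and 7.88% of 822201 such regions hold 4 or more. The windows at -39 kb from Cebpb and -9 kb from Cebpd hold 1 C/EBP match each, below that mean. Stretches picked the same way at +9 kb from Cebpd and -9 kb from Cebpg are not printed. They hold 2 and 0 C/EBP matches, and their whole windows, in both of which H3K27Ac rose, hold 3 and 0.

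At the gene starts, the C/EBP genes differed more from each other than most of them changed with time. H3K27Ac was enriched at 4 of the 5 starts, all but that of Cebpe, at 0 and at 48 hpi (46.3% and 47.1% of all starts), that of Cebpa by tags in the coding sequence it shares with the transgene. From 0 to 48 hpi 1 of the 5 starts, that of Cebpd, was called higher in H3K27Ac (5.28% of all starts were) and 1, that of Cebpa, was called lower (9.25% of all starts were). The call for Cebpa was lost when libraries were scaled by background or by enriched bins, with 0 of 5 lower. In H3K4Me1 from 0 to 48 hpi none of the 5 was called higher or lower, against 3.36% and 9.67% of all starts, but with libraries scaled by background bins 3 of the 5 were called higher (Cebpb 1.63, Cebpd 1.10 and Cebpe 1.23), as were 3546 of the 22350 starts. From 0 to 12 hpi the starts of Cebpb and Cebpe were called higher in H3K4Me1 (3.21% of all starts) and those of Cebpd and Cebpe in H3K27Ac (4.4% of all starts). In H3K27Me3 no 3-kb start window of the family was enriched at any time, where 16.3% of all starts were enriched at 0 hpi and 18.6% at 48 hpi, and none was called higher or lower from 0 to 48 hpi (1.66% and 2.09% of all starts). The median start changed by -0.27 (log2) in H3K4Me1, -0.14 in H3K27Ac and 0.00 in H3K27Me3.

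**Figure D1:**
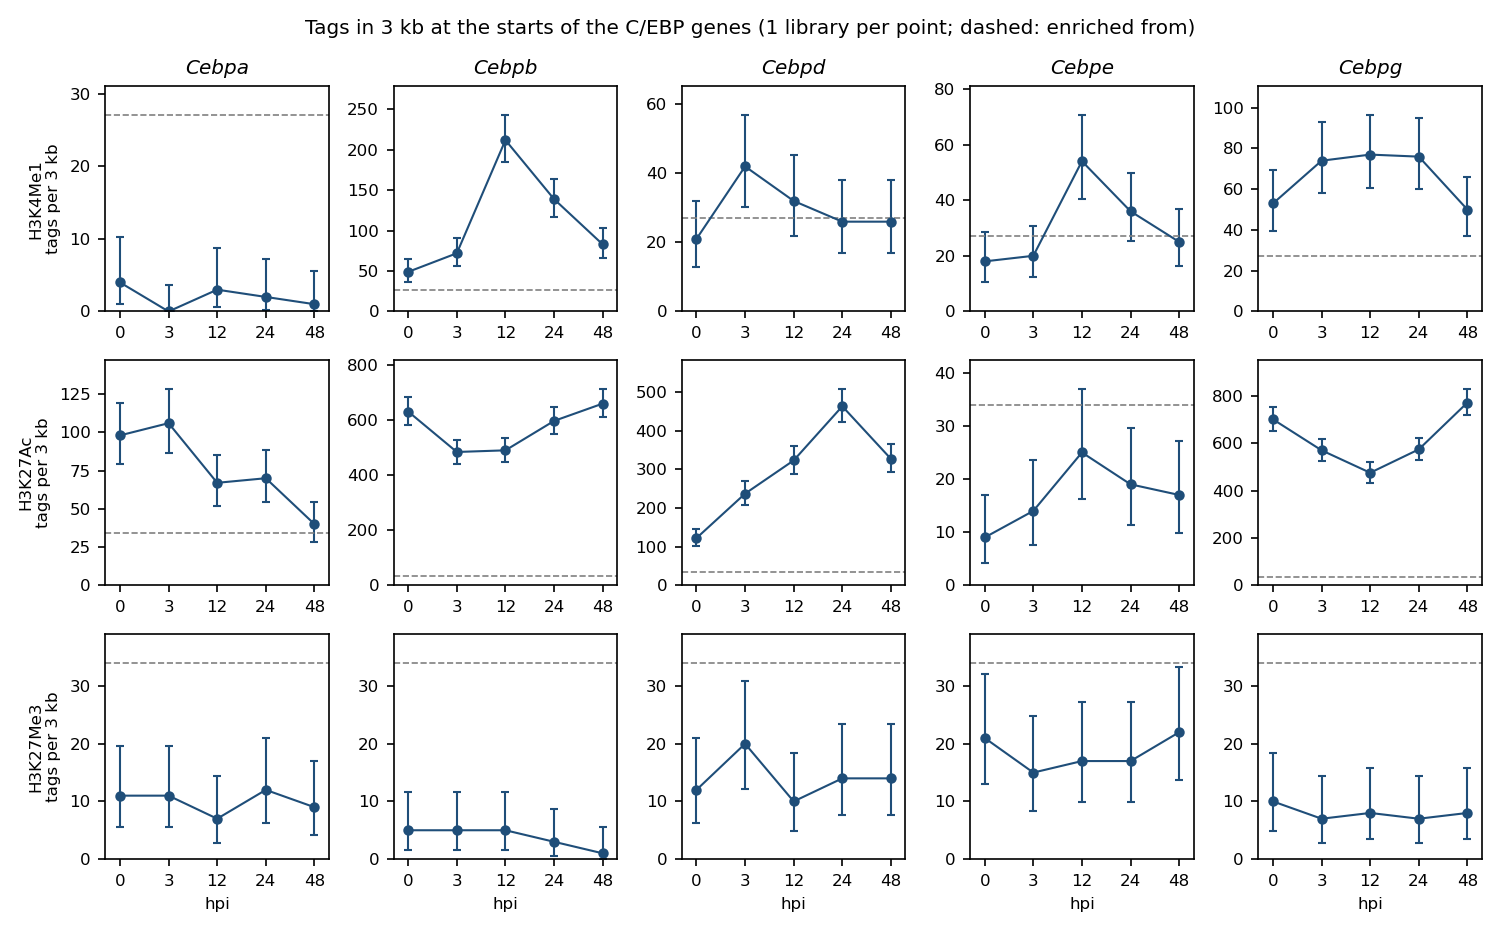
Tags in the 3 kb at the start of each C/EBP gene (y axis, a scale of its own per panel) at 0, 3, 12, 24 and 48 hpi (x axis), with a row of panels per mark, a column per gene, exact 95% Poisson intervals as bars and the threshold of enrichment as a dashed line. In H3K27Ac, Cebpg and Cebpb stayed at the top (476 to 773 and 485 to 661 tags), Cebpd went from 122 to 327, Cebpa from 98 to 40, and Cebpe stayed at 25 or below.

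The order of the starts by H3K27Ac at 48 hpi was Cebpg, Cebpb, Cebpd, Cebpa and Cebpe, with 773, 661, 327, 40 and 17 tags. These levels exceeded those of 99.11%, 98.21%, 85.21%, 53.70% and 47.97% of all starts. Cebpg and Cebpb had overlapping counting intervals at 0, 3, 12 and 24 hpi and were separated at 48 hpi, and Cebpd and Cebpa overlapped at 0 hpi and were separated at the other times. The other neighbours in this order were separated at every time.

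Cebpa (ENSMUSG00000034957.9, chr7:35904312-35906945, plus strand), the gene of the endogenous form of the induced factor, showed almost none of the enhancer mark at its start. Its H3K4Me1 counts were 4, 0, 3, 2 and 1 tags at 0, 3, 12, 24 and 48 hpi. H3K27Me3 was likewise below the mean of the genome, with 11, 11, 7, 12 and 9 tags. H3K27Ac stood at 98, 106, 67, 70 and 40 tags, a log2 change from 0 to 48 hpi of -1.19 (ratio interval -1.86 to -0.75) and from 12 to 48 hpi of -0.68. With libraries scaled by background or by enriched bins the change from 0 to 48 hpi was -0.93 or -0.82, short of the 2-fold call, and at 24 hpi the level scaled by background bins was 140, above that at 0 hpi.

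The H3K27Ac tags at Cebpa lay almost entirely inside its coding sequence. Of the 98, 106, 67, 70 and 40 tags in the start window, 97, 105, 65, 68 and 39 fell within the 1077 bp of coding sequence, so that the rest of the 3 kb held 1, 1, 2, 2 and 1 tags. Without thinning, the coding sequence held 97, 117, 74, 74 and 41 tags, and the 500 bp before it and the 500 bp after it held 0 tags in all 5 libraries. The tags lay at many positions of the coding sequence: the 403 tags of the 5 libraries together occupied 263 distinct positions, 24.42% of its bases, from base 73 to base 1061. Their spread was uneven. The 100 bp from bases 101 and 801 held 82 and 54 tags, those from bases 601 and 701 held 5 and 1, and the longest gap was 137 bp. The other marks had few tags there, 13, 3, 4, 5 and 5 in H3K27Me3 and 1, 3, 1, 1 and 0 in H3K4Me1 without thinning. The H3K27Me3 library at 0 hpi was the deepest of all, and at equal depth the H3K27Me3 counts were 1, 2, 3, 5 and 5.

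**Figure D2:**
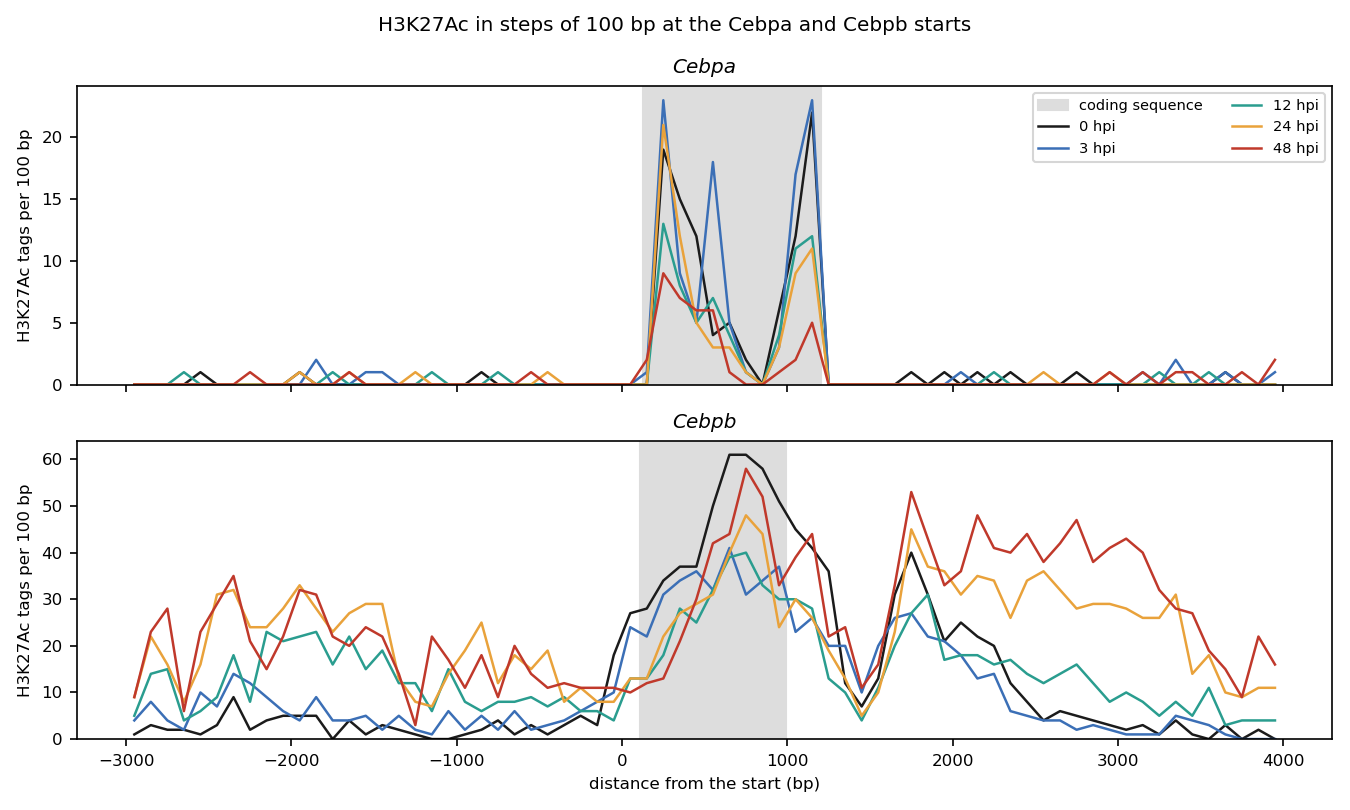
H3K27Ac tags per 100 bp (y axis) by distance from the start in bp (x axis) at Cebpa and, for contrast, at Cebpb, with a line for each time and the coding sequence shaded. At Cebpa almost all tags near the start lie within the coding sequence, with single tags farther out, whereas at Cebpb the tags continue on both sides.

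Cebpb had another shape. At equal depth its 888 bp of coding sequence held 411, 293, 254, 277 and 303 H3K27Ac tags, a stretch of the same length before it 67 to 113 and one after it 172 to 281. The corresponding stretches of 1077 bp beside the Cebpa coding sequence held 0 to 1 and 0 to 3 tags. The transgene carries the C/EBPα coding sequence, and tags from the transgene and from the endogenous Cebpa gene cannot be told apart. With the coding sequence left out, the start window of Cebpa held no more than 2 tags in any H3K27Ac library and its log2 change from 0 to 48 hpi was 0.00. The enrichment at this start, its place in the order of the family and its call as lower therefore rest on tags in the coding sequence alone.

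Around Cebpa, 13 of the 66 flank windows were called higher in H3K27Ac from 0 to 48 hpi and 1 lower, where 12% and 5.68% of all flank windows were called. From 12 to 48 hpi 5 windows were higher (5.87% of all flank windows). Within 10 kb of the start, H3K27Ac at +9 kb rose from 4 to 5, 9, 20 and 48 tags (log2 change 2.56), a window picked after its values were seen. It passed the threshold of enrichment at 48 hpi alone. The window at -90 kb, in an intron of Pepd, held 189, 117, 115, 131 and 109 tags (-0.77, not called, and -0.07 from 12 to 48 hpi).

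Cebpa and Cebpg start 62790 bp apart on chromosome 7, so that most of their flank windows cover the same ground and are not separate evidence. The start of Cebpg lies in the Cebpa window at -63 kb (733, 574, 476, 575 and 762 H3K27Ac tags). Between the genes, the Cebpa window at -54 kb, which covers nearly the same ground as the Cebpg window at -9 kb, rose from 19 to 13, 35, 73 and 101 H3K27Ac tags (log2 change 2.14, and 1.41 from 12 to 48 hpi). Its H3K4Me1 rose as well, with 37, 26, 100, 163 and 157 tags (1.95). The greatest loss was at -84 kb from Cebpa, in an intron of Pepd and also picked after its values were seen: H3K27Ac stood at 310, 134, 78, 52 and 69 tags (-2.09) and H3K4Me1 at 284, 260, 146, 110 and 90 (-1.61). H3K27Ac was lower at each later time than at 0 hpi, and from 12 to 48 hpi it changed by -0.17.

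Cebpb (ENSMUSG00000056501.3, chr2:167514415-167515918, plus strand), whose product acts with or in place of C/EBPα in macrophages, was acetylated at its start before induction and changed around it. At the start, H3K27Ac was 632, 485, 491, 598 and 661 tags at 0, 3, 12, 24 and 48 hpi, a log2 change from 0 to 48 hpi of 0.06 (ratio interval -0.09 to 0.22) and from 12 to 48 hpi of 0.43. This course depended on the scaling, with 632, 329, 438, 1196 and 810 tags by background bins and 632, 530, 548, 607 and 880 by enriched bins. H3K4Me1 at the start rose and fell back: 49, 72, 212, 139 and 83 tags, with a log2 change of 2.01 (1.66 to 2.59) from 0 to 12 hpi and -1.30 from 12 to 48 hpi. Both of these changes were called, where 3.21% of all starts were higher over the first interval and 7.04% lower over the second. At 12 hpi 0 of the 212 H3K4Me1 tags lay in the coding sequence, while the 888 bp before it held 68. H3K27Me3 had 5, 5, 5, 3 and 1 tags.

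The value at this start depended on the window. H3K27Ac changed by -0.43 from 0 to 48 hpi in the central 1 kb, by 0.06 in 3 kb and by 0.78 in 6 kb. The neighbouring windows rose: at -3 kb from 56 to 124, 275, 421 and 421 tags, and at +3 kb from 263 to 204, 333, 687 and 906. The stretch of continuous H3K27Ac enrichment at the start lengthened from 6 kb at 0 hpi to 7, 9, 20 and 20 kb at 3, 12, 24 and 48 hpi.

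The flanks of Cebpb gained H3K27Ac over most of their length. From 0 to 48 hpi 47 of 66 windows were called higher and 0 lower, against 12% and 5.68% of all flank windows, and the median gene had 5.5 windows called higher. Of all genes, 99.9% had fewer. The number was already 11 at 3 hpi (4.99% of all flank windows), 26 at 12 hpi (7%) and 37 at 24 hpi (7.29%). From 12 to 48 hpi 23 windows were higher (5.87%). Of the 47 windows, 17 lay upstream and 30 downstream, between -90 and +99 kb, with a median log2 change of 2.00.

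**Figure D3:**
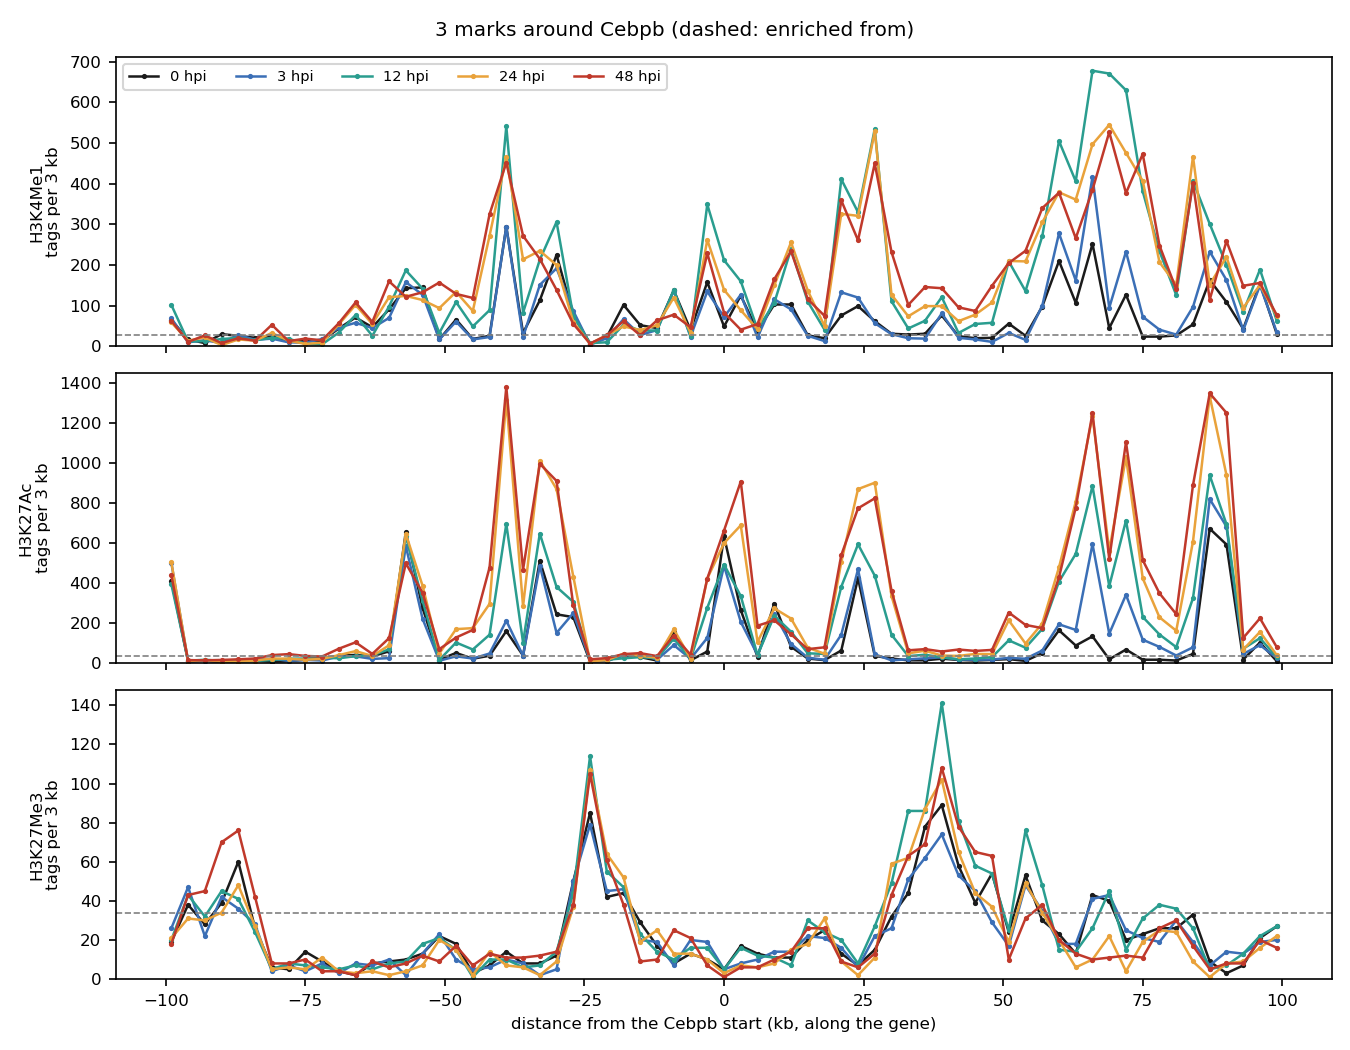
Tags per 3 kb from 100 kb before to 100 kb after the start of Cebpb (x axis, distance in kb along the gene), with a panel for each mark, a line for each time and the threshold of enrichment dashed. At equal depth, H3K27Ac at the start stays between 485 and 661 tags while the windows at -39, +27, +66 and +72 kb rise from 158, 34, 132 and 66 tags at 0 hpi to 1378, 822, 1248 and 1103 at 48 hpi.

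The strongest H3K27Ac windows of Cebpb at 48 hpi were at -39, +66 and +87 kb. At -39 kb, in an intron of Tmem189 and holding the first stretch of 300 bases printed for Cebpb, H3K27Ac rose from 158 to 210, 694, 1315 and 1378 tags (log2 change 3.08, ratio interval 2.89 to 3.37). H3K4Me1 there was 294, 294, 541, 465 and 452 tags. The window was thus enriched in both marks at 0 hpi, and little of its gain in H3K27Ac was present at 3 hpi. H3K27Ac changed by 0.98 between 12 and 48 hpi.

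The intergenic window at +66 kb, which contains the element named +65 kb, rose at the first time: its H3K27Ac was 132, 593, 884, 1233 and 1248 tags (log2 change 3.19, 2.98 to 3.51, and 0.50 from 12 to 48 hpi). H3K4Me1 peaked at 12 hpi, with 252, 417, 678, 497 and 385 tags. H3K27Me3 was 43, 41, 26, 10 and 10 tags (-1.68, -3.26 to -1.09), so the window was above the threshold of 34 at 0 and 3 hpi and below it afterwards. At +69 kb, picked after its values were seen, H3K27Me3 went the same way, with 40, 43, 45, 22 and 11 tags. The window at +87 kb, which contains the element named +88 kb, was rich in H3K27Ac from the outset, with 670, 818, 937, 1332 and 1347 tags, and held 163, 233, 301, 152 and 115 H3K4Me1 tags.

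Other windows of Cebpb, picked after their values were seen, changed by more from lower levels. At +27 kb H3K27Ac was 34, 42, 435, 900 and 822 tags (4.41). At +75 kb it was 15, 115, 229, 422 and 513 tags (4.69), with H3K4Me1 at 24 tags at 0 hpi and 473 at 48 hpi. At +72 kb it was 66, 340, 711, 1028 and 1103 tags. The windows at +66, +72 and +75 kb were thus several-fold higher at 3 hpi than at 0 hpi, whereas those at -39 and +27 kb had little of their gain by then.

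H3K4Me1 was already broad around Cebpb. At 0 hpi 46 of its 66 flank windows were enriched in H3K4Me1 and 31 in H3K27Ac (19.7% and 12.2% of all flank windows), and at 48 hpi 58 and 57 (22.7% and 18.4%). Over the 5 times the windows enriched in H3K27Ac were 31, 34, 42, 53 and 57, and in the 300 kb centred on the start the enriched length was 77, 87, 120, 145 and 184 kb. The longest continuous stretch went from 8 kb to 16, 22, 35 and 40 kb. H3K4Me1 was called higher in 24, 30 and 30 windows at 12, 24 and 48 hpi (4.21%, 6.77% and 8.33% of all flank windows) and lower in 2 at 48 hpi (10.5%).

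Of the 47 windows whose H3K27Ac was called higher, 33 were enriched in H3K4Me1 at 0 hpi, close to the share over the whole of the flanks (46 of 66). Of the same 47, 20 were enriched in H3K27Ac at 0 hpi, and H3K4Me1 was also called higher in 27 and lower in 2. Among the 26 windows that were enriched in H3K27Ac at 48 but not at 0 hpi, H3K4Me1 enrichment came first in 19, at the same time in 5 and at no time in 2, and in 14 of the 19 it was there at 0 hpi. Over the windows newly enriched around all starts (120477, with windows shared between near genes), H3K4Me1 came first in 52.4%, at the same time in 23.1% and after H3K27Ac in 7.76%, and was there at 0 hpi in 36.7%. The order rests in part on the H3K27Ac libraries at 0 and 3 hpi, which stand apart in the heavy chain segment. Their effect on the order, here and at the other members, was not tested.

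Windows enriched in H3K27Me3 around Cebpb numbered 16 at 0 hpi and 17 at 48 hpi (20.4% and 23% of all flank windows), with 1 window called higher and 4 lower (1.3% and 1.93%). Of all genes 92.9% had fewer windows lower, and from 12 to 48 hpi 6 windows were lower (1.27% of all flank windows), with fewer in 99.5% of genes. From 0 to 48 hpi 3 of the 4 lower were among the 47 that gained H3K27Ac. The strongest H3K27Me3 windows, picked after their values were seen, were at -24 kb (85, 79, 114, 107 and 105 tags) and +39 kb (89, 74, 141, 102 and 108 tags). The second of these also gained H3K4Me1, from 76 tags at 0 hpi to 143 at 48 hpi.

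Cebpd (ENSMUSG00000071637.4, chr16:15887379-15888559, plus strand), the gene of an inflammation-induced member, was the only member whose start was called higher in H3K27Ac from 0 to 48 hpi. The annotation lists it as a pseudogene in a single record, which places it outside the protein-coding background. H3K27Ac at its start was 122, 237, 323, 463 and 327 tags, log2 changes from 0 hpi of 0.93, 1.37, 1.88 and 1.39 (ratio interval at 48 hpi 1.12 to 1.73), called at 12, 24 and 48 hpi (4.4%, 4.69% and 5.28% of all starts). The change to 48 hpi was higher than at 97.05% of protein-coding starts. From 12 to 48 hpi it changed by 0.02, and in the central 1 kb the change from 0 to 48 hpi was 0.82, short of the call. The course after 12 hpi depended on the scaling, with 361, 470 and 435 tags at 12, 24 and 48 hpi when libraries were scaled by their enriched bins and 288, 926 and 401 by their background bins. H3K4Me1 was 21, 42, 32, 26 and 26 tags and H3K27Me3 12, 20, 10, 14 and 14.

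Around Cebpd, 24 of 66 windows were called higher in H3K27Ac from 0 to 48 hpi and 0 lower, against 12% and 5.68% of all flank windows. Of the 24, 4 lay upstream and 20 downstream, with a median log2 change of 1.52, and 94.4% of genes had fewer windows higher. At 3, 12 and 24 hpi 7, 22 and 13 windows were higher (4.99%, 7% and 7.29% of all flank windows), and from 12 to 48 hpi 4 were, near the background of 5.87%. The H3K27Ac library at 24 hpi held few tags in background bins (scaling factor 2.00), and its part in the count of 13 was not tested. Of the 66 windows, 2, 2, 10, 8 and 11 were enriched over the 5 times, where 12.2% of all flank windows were enriched at 0 hpi and 18.4% at 48 hpi.

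Both enhancer marks rose in windows beside Cebpd. Those at -9, +9 and -24 kb were picked for most H3K27Ac at 48 hpi, a choice that favoured a rise towards that time, so their changes are descriptions. At -9 kb, the intergenic window that holds the printed Cebpd stretch, H3K27Ac was 6, 16, 98, 160 and 275 tags (log2 change 4.67, ratio interval 4.38 to 6.98, and 1.44 from 12 to 48 hpi) and H3K4Me1 17, 22, 89, 128 and 211 tags (3.30), while H3K27Me3 was 47, 40, 66, 55 and 25 tags (-0.79, not called). At +9 kb, over an exon of 2310008H04Rik, H3K27Ac was 15, 16, 44, 96 and 251 tags (3.68, and 2.39 from 12 to 48 hpi) and H3K4Me1 7, 6, 11, 69 and 137. The window at +3 kb, picked after its values were seen, held 63, 112, 587, 966 and 663 H3K27Ac tags (3.30), more than the start from 12 hpi on. The window at -24 kb, at the start of Mzt2, held 273, 329, 423, 396 and 320 tags (0.23, and -0.40 from 12 to 48 hpi).

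**Figure D4:**
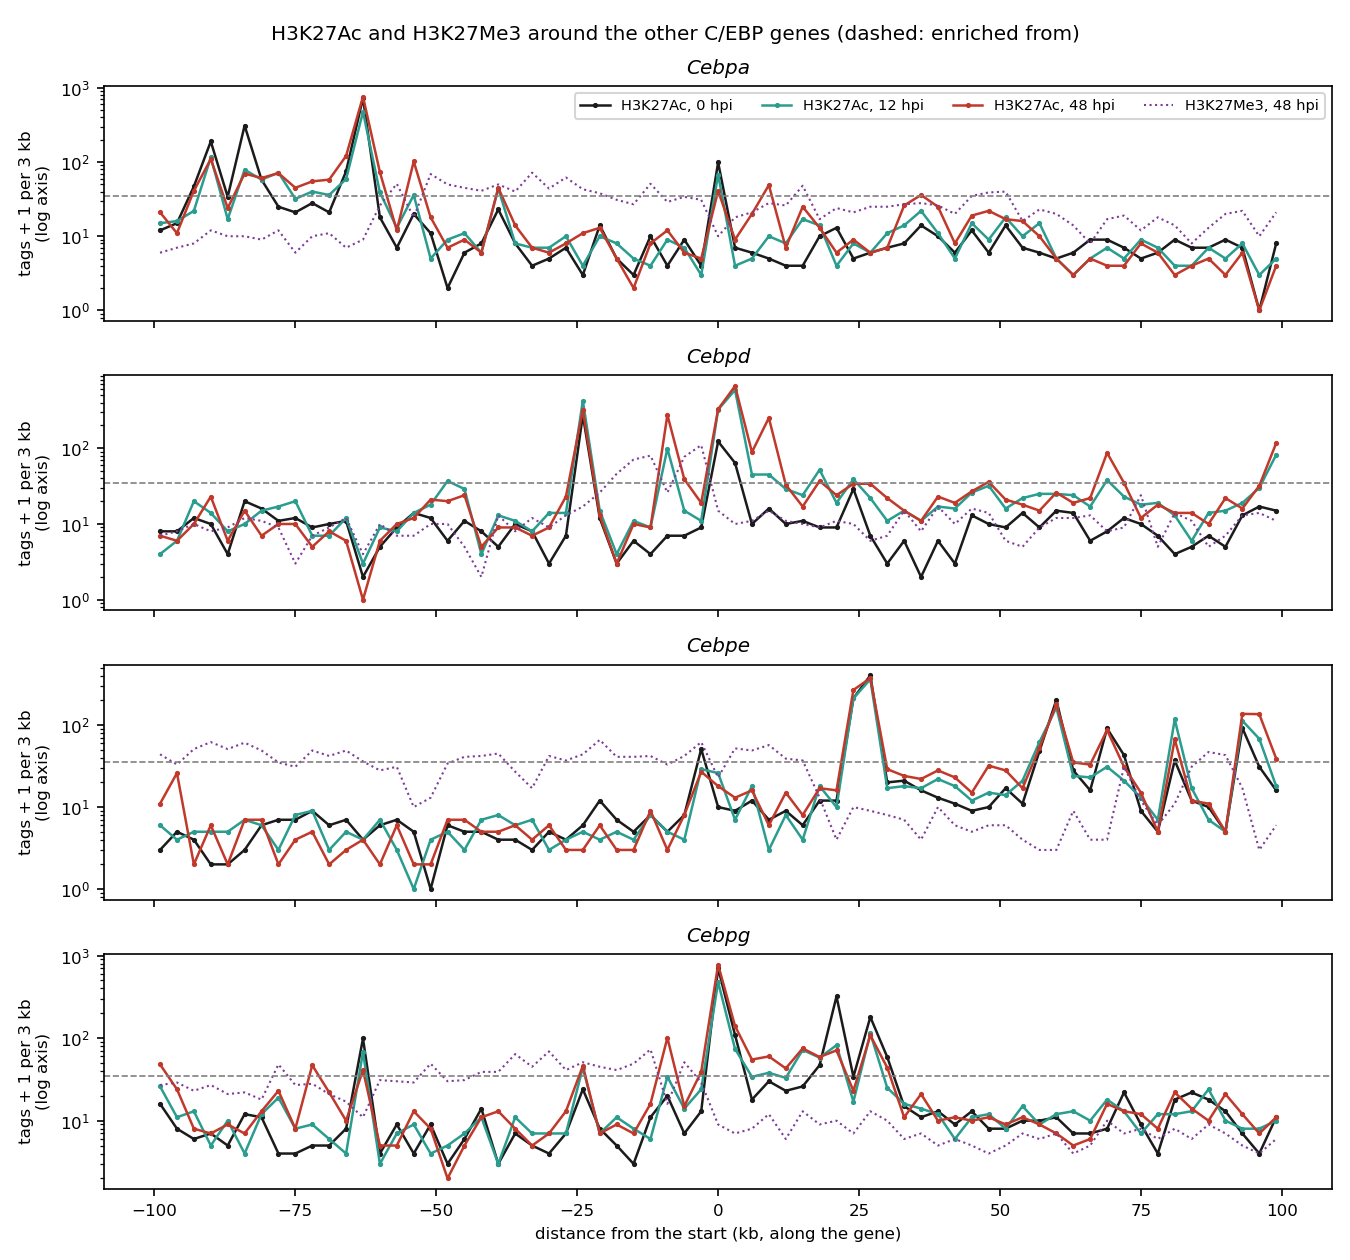
Tags per 3 kb, plus 1, on a logarithmic y axis around the starts of Cebpa, Cebpd, Cebpe and Cebpg (x axis, distance in kb along each gene), with solid lines for H3K27Ac at 0, 12 and 48 hpi, a dotted line for H3K27Me3 at 48 hpi and the H3K27Ac threshold dashed. The Cebpd windows at -9, +3 and +9 kb rise from 6, 63 and 15 tags to 275, 663 and 251, while at Cebpe the strong windows at +27 and +60 kb hold 403 and 202 tags at 0 hpi and 373 and 178 at 48 hpi.

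Of the 24 Cebpd windows whose H3K27Ac was called higher, 12 were also called higher in H3K4Me1 and 1 was enriched in H3K4Me1 at 0 hpi. In all, 2 of the 66 Cebpd windows were enriched in H3K4Me1 at 0 hpi, against 46 of 66 at Cebpb. Of the 9 windows newly enriched in H3K27Ac, H3K4Me1 enrichment came first in 1, at the same time in 6 and later in 2, and in 0 of 9 was it there at 0 hpi. Around all starts these shares were 52.4%, 23.1%, 7.76% and 36.7%. The order at Cebpd depends on the scaling, since with scaling by background bins H3K4Me1 came first in 8 of 13 windows. The stretch of H3K27Ac enrichment at the start went from 2 kb to 6, 7, 7 and 12 kb. By the same measure, in steps of 1 kb at or near the start, H3K27Me3 enrichment ran for 3, 0, 0, 7 and 6 kb. H3K27Me3 enrichment covered 5 flank windows at 0 hpi and 5 at 48 hpi (20.4% and 23% of all flank windows), and 0 windows were called higher and 4 lower (1.3% and 1.93%). The window at -3 kb, picked after its values were seen, carried H3K27Me3 throughout, with 57, 48, 73, 82 and 109 tags.

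Cebpe (ENSMUSG00000052435.6, chr14:55329200-55331011, minus strand), the gene of the granulocyte member, had the least H3K27Ac at its start as long as the Cebpa coding sequence is counted. Outside coding sequence, the start windows of Cebpa and Cebpe held 1 and 7 tags at 0 hpi and 1 and 15 at 48 hpi. The whole Cebpe window held 9, 14, 25, 19 and 17 tags, below the threshold of enrichment at all 5 times. Its log2 change was 1.10 (0.33 to 2.76) from 0 to 12 hpi, 0.65 from 0 to 48 hpi and -0.45 from 12 to 48 hpi. H3K4Me1 at the start was 18, 20, 54, 36 and 25 tags, called higher at 12 hpi (1.36) and enriched at 12 and 24 hpi (47.1% and 43% of all starts). H3K27Me3 was 21, 15, 17, 17 and 22 tags, below its threshold.

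By number of enriched windows, the ground around Cebpe was the part of the family richest in H3K27Me3. At 0 hpi 27 of its 66 windows were enriched and at 48 hpi 30, where 20.4% and 23% of all flank windows were. At 48 hpi 83.9% of genes had fewer. The counts were 16 and 17 around Cebpb, 11 and 17 around Cebpa, 11 and 14 around Cebpg and 5 and 5 around Cebpd. Enriched length in 300 kb was 68, 68, 85, 68 and 76 kb, against 55, 45, 79, 65 and 72 kb around Cebpb. The longest continuous stretch was 18, 15, 10, 12 and 10 kb around Cebpe and 8, 8, 13, 16 and 13 kb around Cebpb. Next to the start, at -3 kb, H3K27Me3 was 46, 41, 48, 43 and 61 tags while H3K27Ac was 50, 48, 28, 9 and 26 tags.

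In H3K27Ac 5 of the 66 Cebpe windows were called higher and 0 lower from 0 to 48 hpi (12% and 5.68% of all flank windows), with 45.0% of genes having fewer windows higher. The strongest windows belong to other genes and changed little: 403, 423, 361, 455 and 373 tags at +27 kb (the start of 1700123O20Rik), 202, 172, 163, 194 and 178 at +60 kb (an exon of Acin1) and 91, 117, 112, 125 and 136 at +93 kb (the start of Psmb5, 0.55). Between 12 and 48 hpi they changed by 0.05, 0.12 and 0.27. The exception was the window at +96 kb, at the start of Mir686 and picked after its values were seen, with 30, 41, 67, 136 and 135 tags (2.00).

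Cebpg (ENSMUSG00000056216.8, chr7:35831441-35841522, minus strand), the gene of the dimer partner, had the highest H3K27Ac of the family at its start at 0, 3 and 48 hpi, with Cebpb slightly above it at 12 and 24 hpi. H3K27Ac was 702, 571, 476, 575 and 773 tags, a log2 change of 0.14 from 0 to 48 hpi and of 0.69 from 12 to 48 hpi. This course too depended on the scaling, with 702, 388, 425, 1150 and 947 tags by background bins and 702, 624, 531, 584 and 1029 by enriched bins. H3K4Me1 was 53, 74, 77, 76 and 50 tags and H3K27Me3 10, 7, 8, 7 and 8. None of the marks was called as changed from 0 to 48 hpi at this start, while at the other annotated start of Cebpg H3K4Me1 changed by -1.08, past the call.

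The flanks of Cebpg counted 11 windows higher and 2 lower in H3K27Ac from 0 to 48 hpi (12% and 5.68% of all flank windows), and 70.0% of genes had fewer windows higher. At -9 kb H3K27Ac was 19, 12, 33, 73 and 100 tags (2.13, and 1.47 from 12 to 48 hpi), the same rise as in the Cebpa window at -54 kb. At +15 kb, over an exon of Pepd, it was 25, 51, 71, 41 and 74 tags (1.40, and 0.06 from 12 to 48 hpi). The level at 12 hpi was not held at 24 hpi, when the change from 0 hpi was 0.62, short of the call. At +27 kb, which shares its ground with the Cebpa window at -90 kb, it was 179, 118, 113, 131 and 107 tags (-0.72, not called, and -0.08 from 12 to 48 hpi). The loss described at -84 kb from Cebpa lies at +21 kb from Cebpg, with 319, 143, 81, 55 and 70 tags.

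Across the family, the number of flank windows called higher in H3K27Ac from 0 to 48 hpi was 47 for Cebpb, 24 for Cebpd, 13 for Cebpa, 11 for Cebpg and 5 for Cebpe, against 12% of all flank windows. In H3K4Me1 the numbers were 30, 16, 9, 8 and 4 in the same order of genes, against 8.33% of all flank windows, and 2, 0, 7, 9 and 6 windows were lower (10.5%). Windows newly enriched in H3K27Ac numbered 9 for Cebpa, with H3K4Me1 first in 6, 9 for Cebpg, with H3K4Me1 first in 6, and 3 for Cebpe, with H3K4Me1 first in 1. Around all starts H3K4Me1 came first in 52.4% of such windows, and these counts are too few to be set apart from that share. In H3K27Me3 no C/EBP gene had more than 2 windows called higher from 0 to 48 hpi (1.3% of all flank windows), but with scaling by background bins Cebpa had 4.

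**Figure D5:**
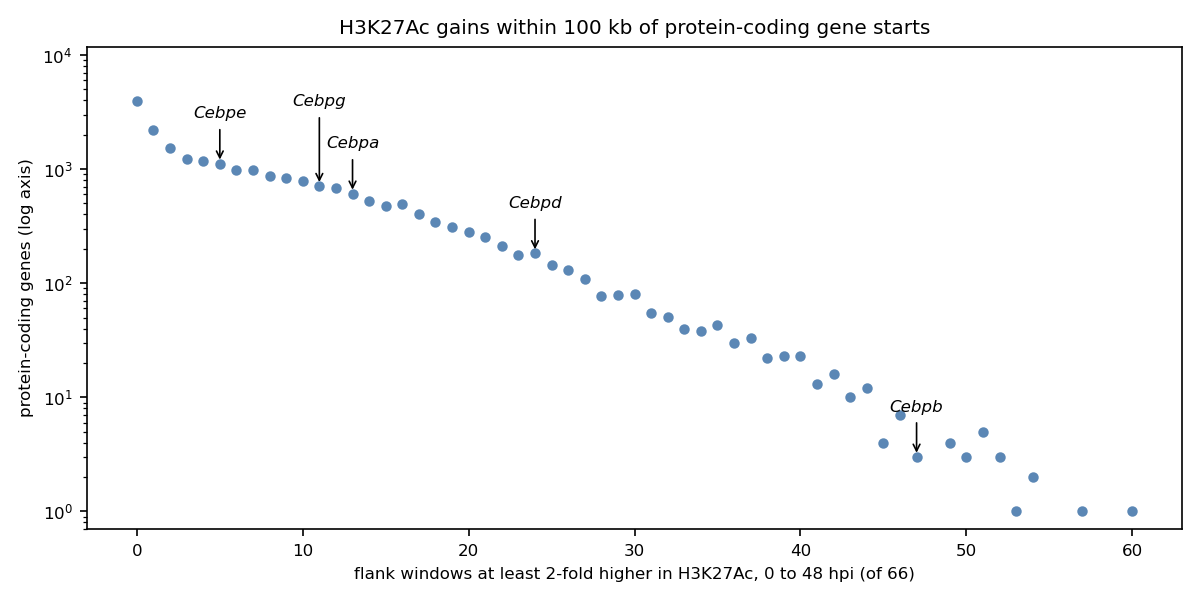
Number of flank windows (of 66) called higher in H3K27Ac from 0 to 48 hpi on the x axis and number of protein-coding genes with that many windows on a logarithmic y axis (points), with the 5 C/EBP genes marked. Cebpb lies at 47, Cebpd at 24, Cebpa at 13, Cebpg at 11 and Cebpe at 5, and the median gene has 5.5.

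Genes that act with or below the family were counted from 4 lists. Of 12 macrophage targets of C/EBP factors, 8 were called higher in H3K27Ac at their start from 0 to 48 hpi and 0 lower (5.28% and 9.25% of all starts), with a median log2 change of 2.38 against -0.14 over all starts. Cd14, a receptor for bacterial lipopolysaccharide, went from 34 to 238, 425, 1021 and 1259 tags (5.02). The cytokine genes Il1b and Il6 went from 20 to 899 (5.18) and from 15 to 735 (5.21) between 0 and 48 hpi, Lyz2, which encodes lysozyme, from 121 to 736 (2.56), and Csf1r, the receptor of CSF-1, from 50 to 247 (2.20). The integrin gene Itgam went from 10 to 92 (2.69), Lcn2, which encodes an iron-scavenging granule protein, from 4 to 94 (3.46), and Csf3r, the receptor of G-CSF, from 6 to 20, still below enrichment. Between 12 and 48 hpi 5 of the 12 were higher (2.41% of all starts). Csf1r, Cd14, Itgam and Lyz2 are also among the 8 macrophage markers, so the counts of these lists are not separate observations.

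Counted next were 10 granulocyte genes, called granule genes below although not all of them encode granule proteins. Some (Mpo, Elane and Prtn3) belong to the primary granules that form before C/EBPε acts, and others to the later granules whose genes C/EBPε drives. Of the 10, 5 were called higher and 0 lower (5.28% and 9.25% of all starts, median 0.83). Camp, which encodes an antimicrobial peptide, rose from 12 to 58, 677, 1065 and 999 tags (5.88) and the collagenase gene Mmp8 from 37 to 1215 (4.86). The start of Cebpe itself stayed below enrichment at equal depth, though not at 24 hpi when libraries were scaled by background bins. Mmp9, a gelatinase gene, went from 137 to 497 (1.82) and S100a8, which encodes a calcium-binding granulocyte protein, from 3 to 87 (3.52). Elane, the gene of neutrophil elastase, held 16, 38, 199, 150 and 61 tags (1.65). Ltf, Ngp, Mpo, Prtn3 and S100a9 were not called. Between 12 and 48 hpi Mmp9 and S100a8 were higher and Elane and Prtn3 lower, 2 and 2 of 10 against 2.41% and 4.62% of all starts.

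Of 10 partners and relatives with a basic leucine zipper, 1 was called higher and 3 lower (5.28% and 9.25% of all starts, median -0.18). Nfil3, a repressor that binds the sites of the PAR family, rose from 62 to 468, 494, 640 and 532 tags (3.00). The PAR family activators Dbp and Tef went the other way, with 665, 660, 303, 374 and 219 tags (-1.58) and 333, 96, 71, 32 and 46 tags (-2.73). Batf3, an AP-1-type factor of dendritic cells, held 22, 66, 29, 15 and 8 tags (-1.05), below the threshold of enrichment at all times but 3 hpi. From 12 to 48 hpi 0 of these 10 were higher and 1, Batf3, was lower (2.41% and 4.62% of all starts).

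Of 10 genes known to regulate C/EBP factors, 1 was called higher and 4 lower (5.28% and 9.25% of all starts, median -0.18). Id1, an inhibitor of helix-loop-helix factors, held 52, 140, 343, 343 and 123 tags (1.17). Trib2, which promotes the breakdown of C/EBPα, held 689, 931, 333, 306 and 283 tags (-1.27). The factors Runx1 (924, 914, 808, 716 and 250 tags, -1.87), Irf8 (526, 469, 367, 380 and 221 tags, -1.23) and Myb (765, 1001, 468, 276 and 96 tags, -2.93) were lower at 48 hpi, and Spi1, which encodes PU.1, changed by -0.17. Between 12 and 48 hpi 0 were higher and 3 lower (2.41% and 4.62% of all starts), namely Id1 (-1.44), Runx1 (-1.67) and Myb (-2.23), while Trib2 and Irf8 were not called. With scaling by background bins or by enriched bins 2 of these 10 were called lower in place of 4. From 0 to 48 hpi 8 of 8 B cell markers were lower (median -1.50) and 7 of 8 macrophage markers higher (median 2.28), while between 12 and 48 hpi 3 of 8 and 2 of 8 were. The part of the change in cell state in these counts was not tested.

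For each member the starts most like it were found over the 15 values of log2(tags + 5), as the root mean square difference, among 18850 named genes with no start within 10 kb of a member. The closest to Cebpg were Ndor1, Rps15a and Erp29 (0.26 each) and to Cebpe Fitm1 (0.31), Jag2 (0.33) and Patl2 (0.39). For Cebpd they were Sgpl1 (0.38), Dusp16 (0.39) and Ssr3 (0.40), and for Cebpb Midn, Letm2 and Dhodh (0.46 each). Cebpa had the most distant neighbours, Nxt2 (0.71), Zfp599 (0.72) and Zfp827 (0.73), and its pattern includes the H3K27Ac tags in the coding sequence.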

How the data were processed

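H3K4Me1, H3K27Ac and H3K27Me3 ChIP-seq libraries (Illumina GAIIx) were deposited by the authors as genomic positions of 36-bp tags without strand. The authors aligned reads to mm9 with Eland or Bowtie, allowed no mismatches, and removed non-unique and identical tags. The labels name Bowtie, and the aligner of each library is not given in the sources used here. Up to 205 and 135 tags share a position in the deposited H3K4Me1 files at 0 and 48 hpi, and at most 2 in the others. Repeats and paralogous sequence are therefore under-counted. In 3 files 2 closing lines held no position and were skipped.

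Tags on 20 chromosomes were placed at their middle (18 bp), kept once per position and thinned per mark to the smallest library (seed 39). Starts came from GENCODE vM1 (NCBIM37). Changes are log2 of (tags + 5), calls are 2-fold, enrichment is a Poisson tail below 0.001 over the mean window, and intervals are exact Poisson or conditional binomial (SciPy 1.17.1, NumPy 2.4.6, pandas 2.3.3, pysam 0.24.0, Python 3.11.15). Scripts were tested on simulated data. With 1 library per group, no test between times was made.

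The members and lists were chosen with earlier results of these data known. Named windows were, per gene, the 3 with most H3K27Ac tags at 48 hpi that were enriched and at least 2 windows from the start and each other, the windows holding the +65 kb and +88 kb Cebpb elements, list members past 2-fold, and the 3 nearest starts. Picking windows by their tags at 48 hpi favoured a rise towards that time. Alternatives were other scalings, windows, thresholds, added tags, start times, deposited duplicates and seeds.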

Additional observations from a re-analysis of the deposited data

How the results depend on the processing

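No paired analysis was possible because there was only 1 library for a given mark and time. Of 872 values recomputed for 123 results, 688 stayed within counting error or within 1.5 times the count, 184 moved further. Among 416 log2 changes, 0 called changes turned sign and 12 fell short of the call, while 39 changes that were short of a call turned sign, such as H3K4Me1 at Cebpb +87 kb (0.45 with background bins in place of -0.49). Alternatives for the lists, the order of marks and, apart from the stricter Poisson tail, the enriched windows were chosen after seeing the data. Scaling by background bins of 10 kb shifted the median of all starts from 0 to 48 hpi by 0.62 (log2) in H3K4Me1, 0.16 in H3K27Ac and 0.14 in H3K27Me3, and scaling by 1-kb bins enriched at all times by 0.02, 0.24 and -0.08. Starts called higher and lower went from 752 and 2162 to 3546 and 615 (background bins) or 785 and 1752 (enriched bins) in H3K4Me1, from 1179 and 2068 to 1732 and 1315 or 2107 and 1099 in H3K27Ac, and from 370 and 467 to 700 and 236 or 170 and 580 in H3K27Me3.

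With background bins, flank windows higher in H3K4Me1 became 20 for Cebpa, 48 for Cebpb, 35 for Cebpd, 17 for Cebpe and 20 for Cebpg, H3K4Me1 at the start changed by 1.63 for Cebpb and 0.83 for Cebpg, so that with Cebpd (1.10) and Cebpe (1.23) 3 of 5 starts were called higher in place of 0, H3K27Ac at the start by 0.36 for Cebpb and 0.43 for Cebpg, 9 Cebpe windows were higher and 1 Cebpg window lower in H3K27Ac, and 2 C/EBP regulators were lower. The H3K27Ac change at the Cebpa start fell short of a call with background bins (-0.93), enriched bins (-0.82) and a 1-kb window (-0.81). With enriched bins, H3K27Ac at the start changed by 0.47 for Cebpb, 1.79 for Cebpd and 0.55 for Cebpg, 9 Cebpe and 17 Cebpg windows were higher and 1 Cebpg window lower, 17 Cebpe windows were enriched at 48 hpi, and 2 regulators were lower. With a 3-fold call, higher windows were 4 (Cebpa), 0 (Cebpe) and 4 (Cebpg) in H3K4Me1 and 4 (Cebpa), 11 (Cebpd), 2 (Cebpe) and 3 (Cebpg) in H3K27Ac, with 1 Cebpg window lower. From 12 to 48 hpi, H3K27Ac at the start changed by -0.68 (Cebpa), 0.43 (Cebpb), 0.02 (Cebpd), -0.45 (Cebpe) and 0.69 (Cebpg), higher windows were 5, 23, 4, 2 and 5, lower windows 0 for Cebpa and 1 for Cebpg, and the lists counted 0 higher and 1 lower zipper partners, 0 higher regulators, 5 higher macrophage targets, and 2 higher and 2 lower granule genes. With 1 tag added, lower H3K27Ac windows were 7 (Cebpa), 2 (Cebpd) and 9 (Cebpe), higher ones 11 (Cebpe) and 17 (Cebpg), and 1 granule gene was lower. With windows shifted by 1500 bp, lower windows were 3 (Cebpa), 1 (Cebpe) and 4 (Cebpg). In 6 kb, the start changed by -0.07 in H3K4Me1 for Cebpb and in H3K27Ac by 0.78 (Cebpb), 1.93 (Cebpd) and -0.34 (Cebpe). In 1 kb, it changed in H3K4Me1 by -0.38 (Cebpb) and -0.68 (Cebpd) and in H3K27Ac by -0.43 (Cebpb) and 0.82 (Cebpd, short of the call). At the other annotated start Cebpg changed by -1.08 in H3K4Me1, which was then called lower, and -0.04 in H3K27Ac. Without its coding sequence Cebpa changed by 0.00, and at a Poisson tail below 1e-05 7 Cebpd windows were enriched. Shares over all flank windows were not recomputed for the other scalings, the 3-fold call, 1 added tag or shifted windows. Counts of flank windows under these settings thus have no background beside them, and the earlier shares do not apply to them. The causes were not tested. Around Cebpa, the 7 flank windows lower in H3K4Me1 became 2 with background bins, 22 with 1 tag added and 1 with a 3-fold call. Flank windows of Cebpa higher in H3K27Me3 went from 1 to 4 with background bins and to 5 with 1 tag added. Counting error limits values under about 30 tags.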
